A study of Mus musculus with 18 samples.

Results

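The genes described here are 10 components of the signaling that follows DNA breaks: Atm, Nbn, Rad50, Mdc1, Rnf8, Trp53bp1, Atr, Atrip, Chek1 and Chek2. They were found by matching the accession of each probe on the array to its RefSeq symbol. Each of the 10 was covered by 1 probe, among 34289 distinct names on the array. RNA of 18 samples, 3 in each of 6 groups, was hybridized to Agilent arrays, 1 array a sample, read in 1 color (Cy3). ES cells were early passage mouse embryonic stem cells, grown on gelatin with leukemia inhibitory factor (LIF) and without feeder cells. ED cells were isogenic cells differentiated from them in medium lacking LIF. The paper's methods also name removal of beta-mercaptoethanol, and a period of at least 4 days. ES and ED samples were not irradiated, ESRE and EDRE samples were collected 15 min after 10 Gy of ionizing radiation (IR), and ESRL and EDRL samples 4 h after the same dose. The study asked why the DNA damage response is attenuated in stem cells, and the comparisons here ask whether the transcripts of the sensing kinases and their mediators differed between the cell types or moved after IR.

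A double-strand break is bound by the complex of Mre11, Rad50 and Nbn, which recruits and activates the kinase Atm. Atm phosphorylates histone H2AX, Mdc1 docks on the phosphorylated histone, and Mdc1 brings in the ubiquitin ligase Rnf8, whose ubiquitin marks lead to the loading of the mediator encoded by Trp53bp1. Single-stranded DNA at stalled forks or resected ends is recognized by Atr with its partner Atrip. Atm signals mainly to the checkpoint kinase Chek2 and Atr mainly to Chek1, which hold the cell cycle, and Atm and Chek2 also act on p53. These proteins are regulated largely by phosphorylation, which an expression array does not see.

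Signals are log2 values minus the 75th percentile of their array, so that 0 is the brightness of that percentile. The percentile lay between 2806 and 4268 on 15 arrays, and fell to 1952 on ESRL replicate 1, 875 on EDRE replicate 2 and 1155 on EDRE replicate 3. On replicates 2 and 3 of EDRE, 24.4% and 23.8% of spots were marked as outliers by the scanner software, against 3.33% to 11.1% on the 15 arrays, and the main results that use EDRE are given with and without them. Without them EDRE is 1 array, which is then assumed to vary like the arrays of the other groups, and the same holds wherever a group has 1 usable spot. The arrays carried 6 scan times, and no group was scanned together with its control. Stem cell markers separated the cell types: Pou5f1 lay at 6.69 ± 0.09 (SD, n = 3) in ES and -3.59 ± 0.08 in ED, and 7 of 8 stem cell markers tested were lower in ED, while Sox2 was still at 2.32 ± 0.11. Of 6 mesenchymal markers tested, 5 were higher in ED and Thy1 was lower. The samples are bulk cultures, in which fewer cells of a type and less RNA per cell cannot be told apart. As a check of irradiation, 20 p53 target genes were read. Of the 18 tested, 10 rose in EDRL against ED, where 1.74% of all probes passed as higher. In ESRL against ES 5 of 18 rose, where 1.75% of all probes passed as higher.

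Promoters were taken from RefSeq (GRCm38.p6) for 8 of the 10 genes; Nbn and Rad50 are named only. The 3 shown belong to the genes that the comparisons turn on, and each is the 250 bases before the annotated start, 5′ to 3′ on the strand of the gene. Capitals mark matches on either strand to CCAAT (read as ATTGG on the other strand) and to GGGCGG (read as CCGCCC). Chek2 lies at chr5:110839733-110839982 on the plus strand, Atr at chr9:95857347-95857596 on the plus strand and Atm at chr9:53536672-53536921 on the minus strand.
Chek2: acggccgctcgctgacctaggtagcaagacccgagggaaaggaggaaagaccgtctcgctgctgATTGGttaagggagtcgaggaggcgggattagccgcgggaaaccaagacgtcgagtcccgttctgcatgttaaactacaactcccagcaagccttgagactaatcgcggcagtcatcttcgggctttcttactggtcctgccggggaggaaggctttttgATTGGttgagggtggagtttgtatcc
Atr: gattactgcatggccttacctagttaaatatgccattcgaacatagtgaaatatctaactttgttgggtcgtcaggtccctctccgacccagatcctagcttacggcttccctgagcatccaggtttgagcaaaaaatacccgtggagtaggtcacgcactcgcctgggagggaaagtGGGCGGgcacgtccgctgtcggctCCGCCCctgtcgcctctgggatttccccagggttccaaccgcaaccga
Atm: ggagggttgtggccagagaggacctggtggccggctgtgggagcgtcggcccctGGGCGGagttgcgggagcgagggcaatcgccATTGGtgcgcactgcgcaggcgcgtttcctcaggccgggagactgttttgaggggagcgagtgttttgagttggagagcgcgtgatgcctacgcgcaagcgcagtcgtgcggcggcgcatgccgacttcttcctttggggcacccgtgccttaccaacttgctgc
The Chek2 window held 2 matches to CCAAT and none to GGGCGG, the Atr window 2 matches to GGGCGG and none to CCAAT, and the Atm window 1 of each. CCAAT was in the windows of 5 of the 8 genes (Atm, Atrip, Chek2, Mdc1 and Rnf8) and in 33.8% of the 32851 promoters in the table, and GGGCGG in 4 of the 8 (Atm, Atr, Rnf8 and Trp53bp1) and in 32.7%. The ETS motif CCGGAAG (in 6.91% of all promoters), the CRE motif TGACGTCA (1.55%), the E-box motif CACGTG (6.02%) and the E2F motifs TTTGGCGC or TTTCGCGC (0.654%) were in none of the 8, with both strands searched for every motif. The motifs describe these letters only, and whether they bear on expression was not tested.

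**Figure D1:**
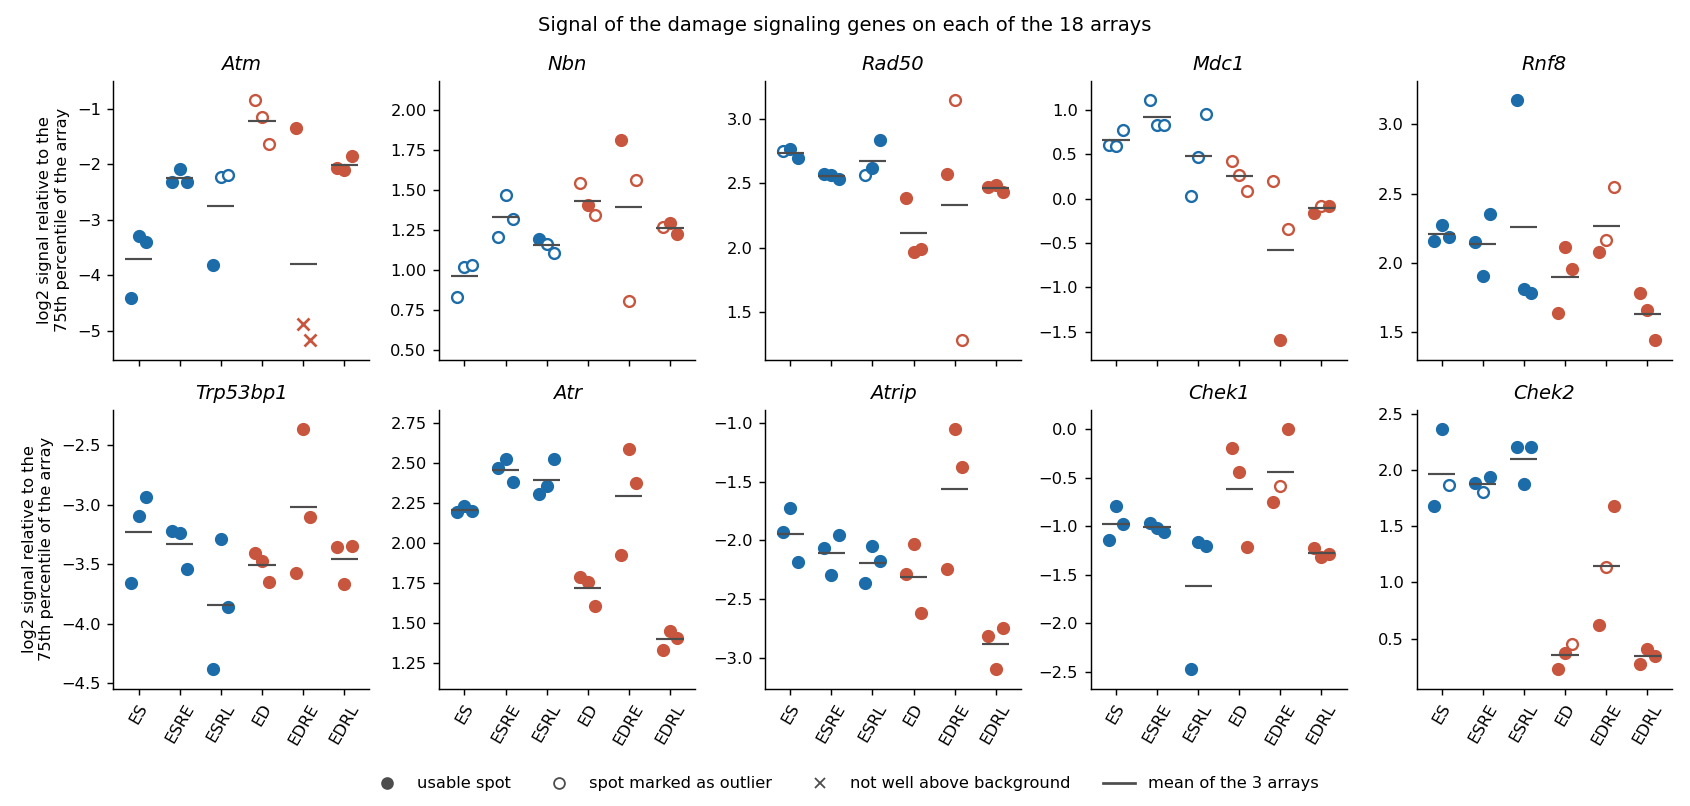
Log2 signal minus the 75th percentile of each array (vertical axis, scaled for each gene) for the 10 genes in the 6 groups of 3 arrays; filled circles are usable spots, open circles spots marked as outliers, crosses spots not well above background, and bars the mean of the 3 arrays, with ES groups in blue and ED groups in red. Chek2 lay lower in ED and EDRL than on any ES, ESRE or ESRL array, and all 3 Atm spots of ED were marked as outliers.

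The Chek2 signal was lower on the ED arrays than on the ES arrays. All ED arrays were scanned at a different time from the ES arrays, so cell type and scan time cannot be told apart in this comparison. Chek2 lay at 1.68, 2.37 and 1.87 in ES and at 0.22, 0.37 and 0.45 in ED, where the last value of each group was an outlier spot. The groups did not overlap. Leaving out the outlier spots, Chek2 was 3.30-fold lower in ED (log2 change -1.72, SE 0.33, adjusted p = 0.0012), and with them kept the log2 change was -1.62 (adjusted p = 3.9e-05). Atr was 1.40-fold lower in ED. It lay between 2.19 and 2.23 in ES and between 1.60 and 1.79 in ED (log2 change -0.49, SE 0.16, adjusted p = 0.017). Rad50 lay at 2.77 and 2.70 on the 2 usable ES arrays and between 1.97 and 2.39 in ED, and was 1.53-fold lower (log2 change -0.62, SE 0.17, adjusted p = 0.012). With outlier spots kept, Rad50 did not pass (log2 change -0.62, SE 0.33, adjusted p = 0.13). Thus 3 of the 7 genes that could be tested were lower in ED and 0 were higher, while 51.9% of all 28636 probes tested passed (32.1% lower and 19.8% higher), so the share of these genes was not above that of the array. Atr missed the threshold without ED replicate 3 (adjusted p = 0.062) and Rad50 without ES replicate 2 (adjusted p = 0.073).

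The scaling of the arrays sets how far Atr and Rad50 can be read. When arrays were centered on their median in place of the 75th percentile, the median log2 difference of all probes moved from -0.19 to 0.46, Atr became 0.15 (adjusted p = 0.42) and Rad50 0.04 (adjusted p = 0.86), while Chek2 remained lower at -1.09 (adjusted p = 0.018) and Chek1 passed in the higher direction (1.00, adjusted p = 0.0075), so that 1 gene was higher and 1 lower. In the matrix of log2 values deposited by the authors, which is centered in a like way, Atr was at 0.16, Rad50 at 0.03, and Chek2 at -0.97 (adjusted p = 0.0041). There 3 of the 10 genes, Chek1 among them, were higher and 1 lower. Outlier spots were not left out of that matrix. The genes higher besides Chek1 were among Atm, Mdc1 and Nbn, which outlier marks kept out of the main test. Quantile normalization left all of Chek2 (-1.82), Atr (-0.55) and Rad50 (-0.68) lower. With scan time as a random block, the changes of Chek2 (-1.71, adjusted p = 0.084), Atr (-0.46, adjusted p = 0.43) and Rad50 (-0.60, adjusted p = 0.45) no longer passed. Replicate 3 of ESRE was scanned together with the ED arrays, and against that array the ED mean was lower by 1.59 for Chek2, 0.66 for Atr and 0.41 for Rad50 on the log2 scale. That array was irradiated, and with 1 sample this difference has no test.

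**Figure D2:**
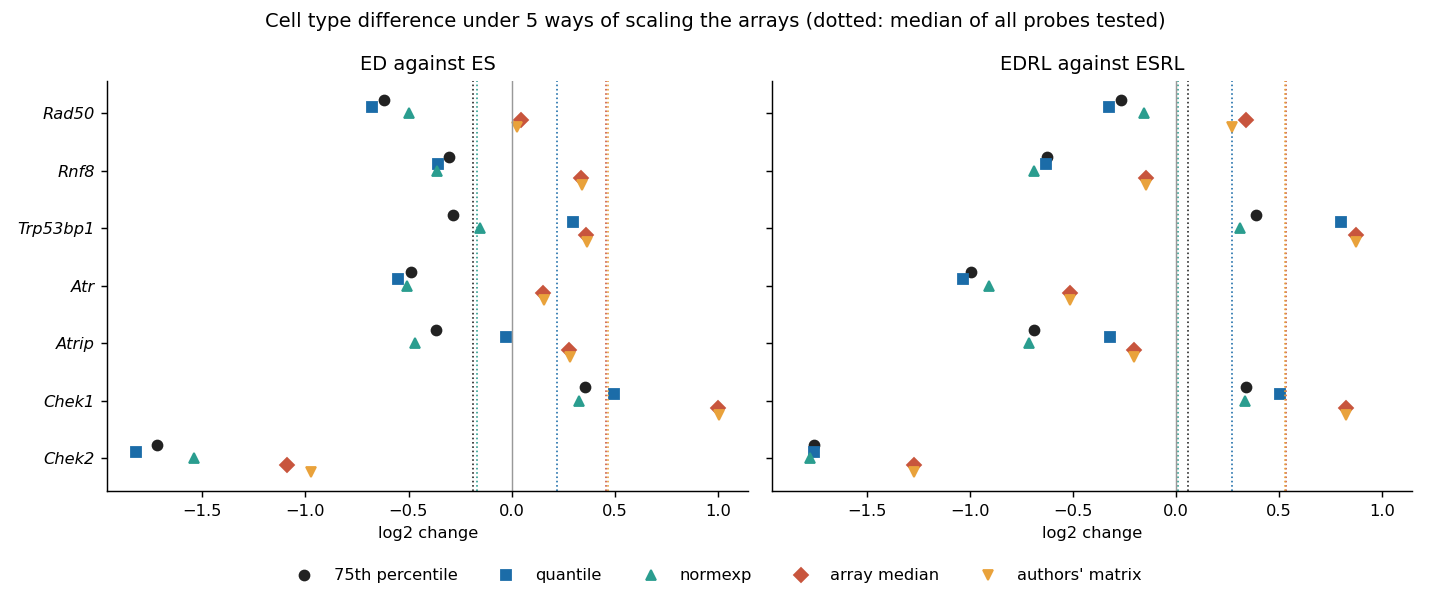
Log2 change (horizontal axis) of the 7 genes tested in ED against ES, and of the same genes in EDRL against ESRL, under 5 ways of scaling or correcting the arrays (symbols); dotted lines mark the median of all probes under each. In ED against ES, Chek2 was below 0 under all 5, whereas Atr and Rad50 were below 0 under 3 and slightly above 0 under median centering and in the authors' matrix.

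The other genes of the Atr and Chek branches, and of the ubiquitin branch, did not pass in ED against ES. Atrip lay between -2.18 and -1.73 in ES and between -2.61 and -2.03 in ED (log2 change -0.37, 95% interval -0.92 to 0.19). Chek1 varied more among the ED arrays (-0.19, -0.44 and -1.21) than among the ES arrays (-1.14, -0.79 and -0.98), and its log2 change was 0.36 (interval -0.37 to 1.08). Trp53bp1 gave -0.28 (interval -0.94 to 0.38) and Rnf8 -0.31 (interval -0.98 to 0.37). Among 19 proliferation genes, 4 of the 17 tested were higher and 4 lower in ED, and their summed signal, in units of the 75th percentile, was 299 to 304 in ES and 240 to 301 in ED. The part of cell division in these values was not tested.

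Atm, Mdc1 and Nbn could not be tested in ED against ES, because every spot of at least 1 of the groups was marked as an outlier. The scanner software had marked Mdc1 on 15 of 18 arrays and Nbn on 13, whereas 1.74% of all probes were marked on 15 or more arrays and 65.8% on none. Atm was marked on 5 arrays, Chek2 and Rad50 on 4 each, Rnf8 on 2, Chek1 on 1, and Atr, Atrip and Trp53bp1 on none. With the spots kept, Atm lay at -4.40, -3.29 and -3.40 in ES and at -0.84, -1.15 and -1.63 in ED. The Atm groups did not overlap, and the log2 difference was 2.48 (SE 0.74, adjusted p = 0.011), but all 3 ED values were outlier spots. On ES replicate 1 the Atm value lay below the brightest negative control spot (-2.48). With outlier spots kept, 50.6% of all probes passed in this comparison. Mdc1 lay between 0.59 and 0.78 in ES and between 0.09 and 0.42 in ED (log2 change -0.40, adjusted p = 0.37). Nbn lay between 0.84 and 1.03 in ES and between 1.34 and 1.55 in ED (log2 change 0.47, adjusted p = 0.079). With outlier spots kept, 7 of the 10 genes had no overlap between ED and ES, as had 72.3% of all probes tested.

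**Figure D3:**
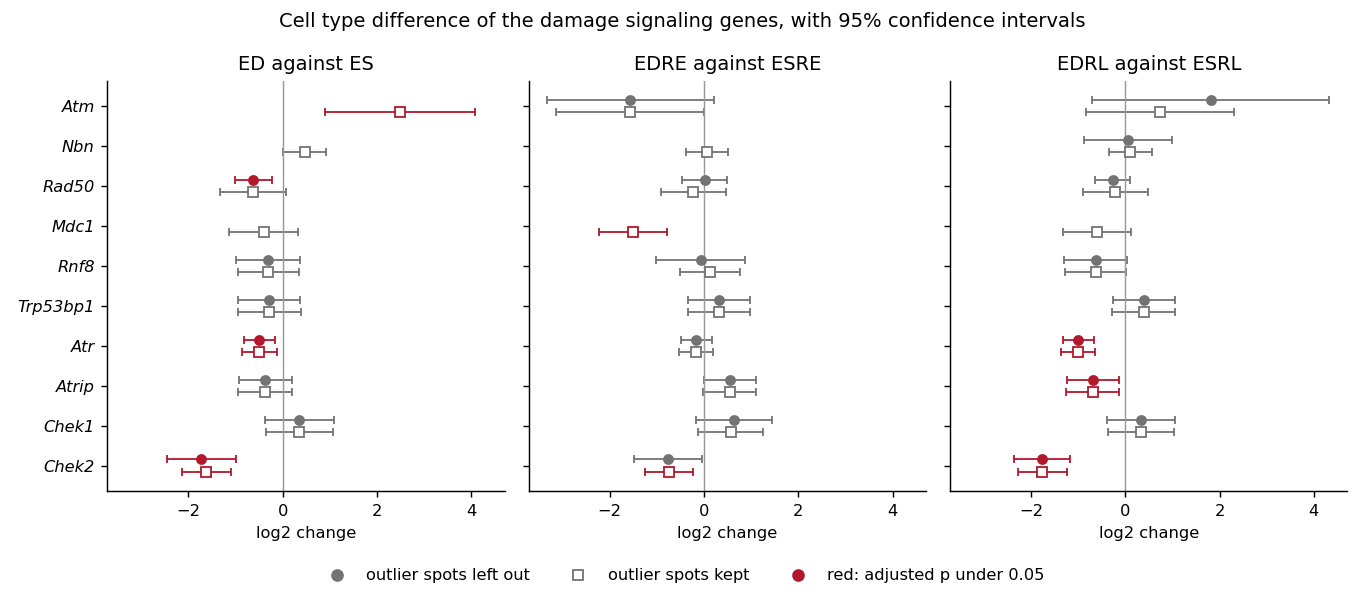
Log2 difference between differentiated and stem cells (horizontal axis) with its 95% confidence interval, before IR and at each time after it, with outlier spots left out (circles) or kept (squares); red marks an adjusted p under 0.05. Chek2 was below 0 in all 3 comparisons and passed before IR and at 4 h, while at 15 min it passed only with outlier spots kept, as did Atm before IR.

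Chek2 and Atr were also compared between the cell types on other arrays at 4 h after IR, where any change after IR enters the difference. Chek2 lay at 2.21, 1.88 and 2.21 in ESRL and at 0.27, 0.41 and 0.34 in EDRL, all usable spots. The difference was 3.37-fold (log2 change -1.75, SE 0.27, adjusted p = 1.8e-04). Atr lay at 2.30, 2.35 and 2.52 in ESRL and at 1.33, 1.45 and 1.41 in EDRL. It was lower in EDRL (log2 change -0.997, SE 0.15, adjusted p = 5.3e-05), and passed in the same direction under median centering (-0.51, adjusted p = 0.0099), in the authors' matrix (-0.51, adjusted p = 0.018) and with scan time as a block (-0.72, adjusted p = 0.049). Chek2 was at -1.34 with scan time as a block and missed the threshold (adjusted p = 0.060). Atrip, the partner of Atr, lay at -2.36, -2.05 and -2.18 in ESRL and at -2.81, -3.10 and -2.74 in EDRL, a log2 change of -0.69 (adjusted p = 0.031) that was -0.20 (adjusted p = 0.45) under median centering. Atrip also missed the threshold without EDRL replicate 1 (adjusted p = 0.054), EDRL replicate 2 (0.11), ESRL replicate 2 (0.080) or ESRL replicate 3 (0.065). Rnf8 lay at 3.17, 1.81 and 1.78 in ESRL and at 1.78, 1.66 and 1.44 in EDRL, and passed only without ESRL replicate 2 or 3 (adjusted p = 0.037 and 0.038). Atm lay at -3.82 on the 1 usable ESRL array and between -2.09 and -1.85 in EDRL, a log2 change of 1.81 that did not pass (adjusted p = 0.19). That ESRL value lay below the brightest negative control spot of its array (-3.29). The log2 change of Atm was 0.74 with outlier spots kept (adjusted p = 0.40). It passed without EDRE replicate 1 (adjusted p = 0.0020), without EDRE replicates 2 and 3 (adjusted p = 0.0031) and from the EDRL and ESRL arrays alone (adjusted p = 0.0055), each time with ESRL as 1 array. Rad50, lower in ED against ES, did not pass here (log2 change -0.27, interval -0.64 to 0.11, adjusted p = 0.20). In all, 3 of the 9 genes tested were lower in EDRL than in ESRL and 0 higher, against 62% of all probes that passed (31.8% lower and 30.2% higher). The balance moved with the scaling: Atr and Chek2 were lower and Chek1 and Trp53bp1 higher under median centering and in the authors' matrix, and Atr and Chek2 were lower and Trp53bp1 higher with quantile normalization. With outlier spots kept, 8 of the 10 genes had no overlap between EDRL and ESRL, as had 68.9% of all probes tested.

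At 15 min after IR no cell type difference of these genes passed with outlier spots left out. Of the 8 genes tested in EDRE against ESRE, 0 passed, with 1 at an unadjusted p under 0.05, while 56.7% of all probes passed. Chek2 lay between 1.80 and 1.94 in ESRE and at 0.62, 1.14 and 1.68 in EDRE, where the second was an outlier spot. These groups did not overlap, as was so for 60.1% of all probes with outlier spots kept, and the log2 change was -0.76 (SE 0.33, adjusted p = 0.068). Without replicates 2 and 3 of EDRE, the change of Chek2 was -1.29 (adjusted p = 0.0040) and that of Atr -0.53 (adjusted p = 0.011), each from 1 EDRE array. With all arrays Atr was -0.16 (adjusted p = 0.39), and under median centering it turned to 0.55 (adjusted p = 0.0064). Under that centering 5 genes passed (Atr, Atrip, Chek1, Trp53bp1 and Rad50), all of them higher in EDRE. Of these, Rad50 had 1 usable EDRE spot, on replicate 1, and Chek1 had 2. Atrip and Trp53bp1 lay below the brightest negative control spot on each EDRE array. Leaving out 1 array changed these calls: without EDRE replicate 3 Chek2 passed (adjusted p = 0.0038), again with replicate 1 as its 1 usable EDRE spot, and without EDRE replicate 1 Atrip passed (0.89, adjusted p = 0.0019). Atm passed as lower in the latter fit, but both of its remaining EDRE spots were not well above background, and no size is given. With outlier spots kept, Chek2 (-0.73, adjusted p = 0.015) and Mdc1 (-1.51, adjusted p = 0.0013) passed as lower in EDRE, as did 60.6% of all probes in either direction. Of the 6 Mdc1 spots behind that value, 5 were marked as outliers. Mdc1 lay between 0.83 and 1.11 in ESRE and at 0.20 on EDRE replicate 1. On the dim EDRE replicates 2 and 3 it lay at -1.60 and -0.34.

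No IR response of these genes was called in stem cells. Of 8 genes tested, 0 passed in ESRE against ES and 0 in ESRL against ES with limma, and 0 of them had an unadjusted p under 0.05 in either comparison. Of all probes, 0.563% passed at 15 min and 8.88% at 4 h. Atr differed by 0.25 at 15 min (interval -0.09 to 0.59) and by 0.19 at 4 h (interval -0.15 to 0.52). For Chek2 the differences were -0.11 (interval -0.85 to 0.62) and 0.07 (interval -0.60 to 0.74). For Chek1 they were -0.04 (interval -0.76 to 0.68) and -0.64 (interval -1.37 to 0.08), and the second came with a value of -2.47 on replicate 1 of ESRL against -1.16 and -1.21 on the other replicates. Rnf8 lay at 3.17 on the same array and at 1.81 and 1.78 on the others. Leaving out replicate 1 of ESRL brought Chek1 to -0.21 and Rnf8 to -0.41, and neither passed.

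Atm showed the widest difference in irradiated stem cells. It lay at -4.40, -3.29 and -3.40 in ES and at -2.32, -2.07 and -2.32 in ESRE, all usable spots marked as well above background. The brightest negative control spot lay at -2.48 on ES replicate 1, above Atm. On ES replicates 2 and 3 it lay at -4.33 and -4.73, below Atm. The groups did not overlap, as was so for 3 of the 8 genes tested and, with outlier spots kept, for 5 of 10 genes and 36.6% of all probes. The log2 difference was 1.46 (SE 0.81, interval -0.33 to 3.25, adjusted p = 0.67). The spread that enters this test is shared by all groups, and Atm ran from -5.17 to -1.35 in EDRE, where replicates 2 and 3 were not well above background. Without those replicates the difference passed (adjusted p = 0.042), as it did without EDRE replicate 1 (adjusted p = 0.032), and from the ES and ESRE arrays alone it did not (adjusted p = 0.055). At 4 h Atm lay at -3.82 on the 1 usable array and at -2.23 and -2.20 on outlier spots. The usable value lay below the brightest negative control spot of its array (-3.29).

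In differentiated cells, 1 of the 8 genes tested passed at 15 min. Atr lay between 1.60 and 1.79 in ED and at 1.92, 2.59 and 2.37 in EDRE, which did not overlap, as was so for 23.3% of all probes with outlier spots kept (log2 change 0.58, SE 0.15, adjusted p = 0.039). In this comparison 7.39% of all probes passed (3.76% higher). The call was lost without the dim arrays: without replicates 2 and 3 of EDRE, Atr differed by 0.21 (adjusted p = 0.64, from 1 EDRE array), and 0 genes passed. With 1 array of any group left out, Atr passed in 4 of 18 fits (adjusted p of 0.00055 to 0.13), and without EDRE replicate 1 Atrip (1.09, adjusted p = 0.00095) and Chek2 (1.38, adjusted p = 0.0039) passed as well, Chek2 from replicate 3 alone, since its spot on replicate 2 was an outlier. Atrip lay at -2.25 on replicate 1 of EDRE and -1.06 and -1.38 on the others, against -2.61 to -2.03 in ED, and did not pass with all arrays (log2 change 0.75, adjusted p = 0.080). The brightest negative control spots of these EDRE arrays lay at 0.61, -0.09 and -1.03, above Atrip on each. With outlier spots kept, Chek2 also passed (0.80, adjusted p = 0.045), as did Atm in the lower direction (-2.59, adjusted p = 0.040). Those Atm values set outlier spots of ED against EDRE spots of which 2 of 3 were not well above background. With the same spots kept, 12.3% of all probes passed.

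At 4 h after IR, 0 of the 8 genes tested in EDRL against ED passed with limma, 2 had an unadjusted p under 0.05, and 2.39% of all probes passed. Atr lay between 1.33 and 1.45 in EDRL, below the 1.60 to 1.79 of ED (log2 change -0.32, interval -0.65 to 0.01). Atrip was at -0.57 (interval -1.12 to -0.02) and Rad50 at 0.35 (interval 0.02 to 0.68), with adjusted p = 0.33 for each. Chek1 lay at -1.22, -1.32 and -1.28 in EDRL (log2 change -0.66, interval -1.37 to 0.06), and its highest EDRL value lay just below the lowest ED value of -1.21. Chek2 differed by 0.04 (interval -0.62 to 0.70) and Trp53bp1 by 0.06 (interval -0.60 to 0.71). With outlier spots kept, 7 of the 10 genes had no overlap between EDRL and ED, as had 43.2% of all probes tested.

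**Figure D4:**
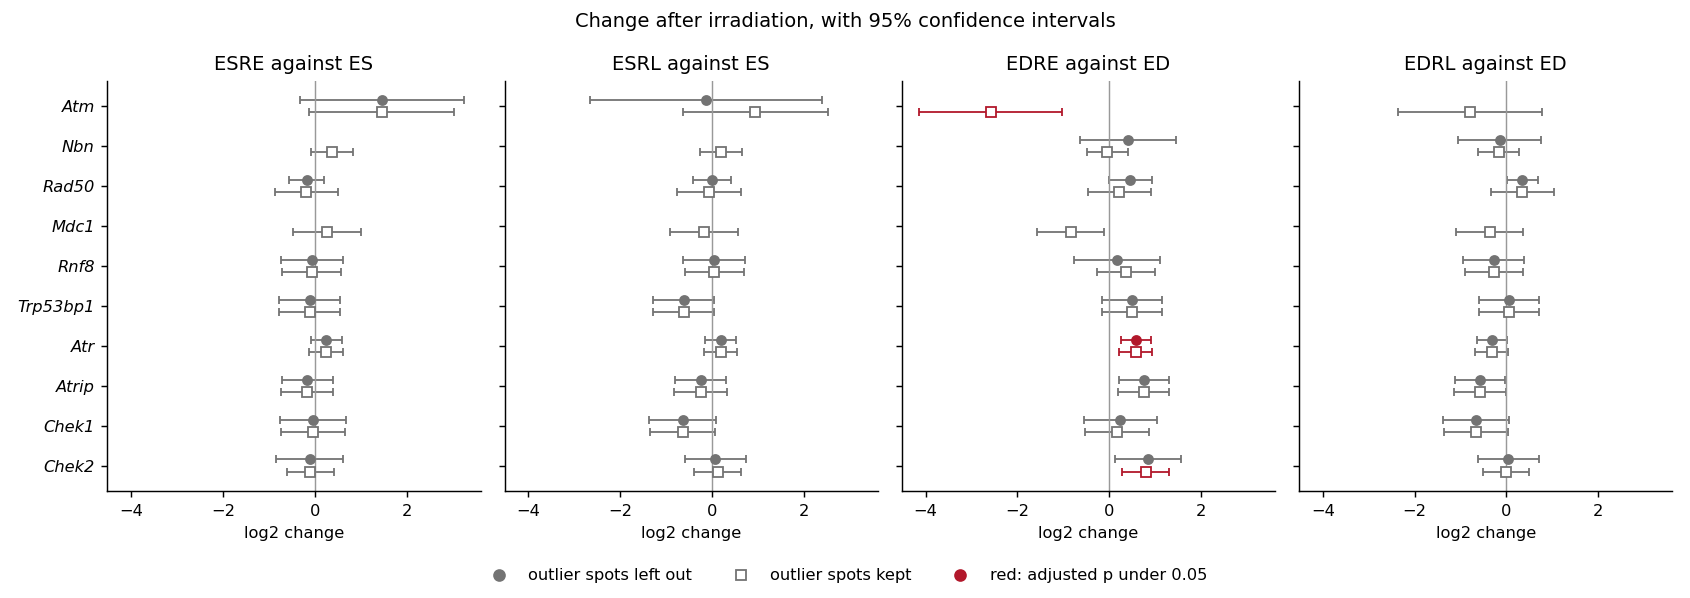
Log2 change after IR (horizontal axis) with its 95% confidence interval at 15 min (ESRE, EDRE) and 4 h (ESRL, EDRL) against unirradiated cells of the same type, with outlier spots left out (circles) or kept (squares); red marks an adjusted p under 0.05. Atr passed in EDRE against ED at 0.58, and 0 genes passed in the ES comparisons or in EDRL against ED.

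The difference between the cell types in the response to IR was itself tested. With limma, 0 of 7 genes passed at 15 min (2% of all probes) and 0 of 7 at 4 h (1.1% of all probes), with 2 and 1 genes at an unadjusted p under 0.05. At 15 min the difference in response, differentiated minus stem cells, was 0.91 for Atrip (interval 0.12 to 1.70, adjusted p = 0.20) and 0.23 without replicates 2 and 3 of EDRE (adjusted p = 0.83). For Rad50, with 1 usable EDRE array, it was 0.63 (interval 0.00 to 1.26, adjusted p = 0.27), and 0.40 with outlier spots kept (interval -0.58 to 1.38). At 4 h the response of Atr differed by -0.51 (interval -0.99 to -0.03, adjusted p = 0.30). For Chek2 at 4 h the difference was -0.03 (interval -0.98 to 0.92). Without EDRE replicate 1, the 15 min response of Atrip passed as higher in differentiated cells with limma (1.25, adjusted p = 0.0057). It rested on both dim EDRE arrays, where Atrip lay below the brightest negative control spot. Chek2 was at 1.49 in that fit, from 1 dim array.

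Partners of these genes on the same pathway moved in both directions between the cell types. Of 40 partners, 37 were tested in ED against ES, and 12 were lower and 4 higher, with a median log2 change of -0.16 against -0.19 for all probes, of which 51.9% passed. Under median centering the counts turned to 4 lower and 10 higher. Rif1, which acts with the Trp53bp1 product in protecting DNA ends, was lower by 1.45 on the log2 scale, and Tti1, a co-chaperone of Atm, Atr and related kinases, by 1.55. Cdc25b, a phosphatase that starts mitosis and is opposed by the checkpoint kinases, was higher by 2.38, and Rbbp8, which starts the resection of ends, by 0.76. These 4 kept their direction and passed under median centering (Rif1 -0.80, Tti1 -0.91, Cdc25b 3.02 and Rbbp8 1.40). At 4 h after IR, 14 partners were lower and 5 higher of 36 tested in EDRL against ESRL, beside 62% of all probes, among them Rif1 (-1.85), Rpa2 of the complex that coats single-stranded DNA (-1.63) and Cdc25b (1.09). Abraxas1 of the Brca1 A complex passed as higher, but was well above background on 1 of 3 ESRL arrays, and no size is given. Under median centering 8 partners were lower and 7 higher. In EDRE against ESRE 7 of 36 were lower and 5 higher, beside 56.7% of all probes, with Rif1 at -2.0, Ube2n, the conjugating enzyme that works with Rnf8, at -1.69, Cdc25b at 1.86 and Brcc3, a deubiquitinase, at 1.33. Rif1, Ube2n and Cdc25b had 1 usable EDRE spot each. Without replicates 2 and 3 of EDRE, 11 of 35 partners were lower and 4 higher, Rif1 and Cdc25b had the same values, Brcc3 was at 0.90 (adjusted p = 0.020) and Ube2n could not be tested. Under median centering 2 were lower and 19 higher.

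After IR, 0 to 3 partners passed in each comparison. In stem cells 0 of 37 passed at 15 min, beside 0.563% of all probes. At 4 h 2 of 37 passed, beside 8.88% of all probes: Rad9a, of the clamp that activates Atr, was higher (0.93, adjusted p = 0.047, from 1 usable ESRL array), and Abraxas1 passed as lower (adjusted p = 0.011) with 1 of 3 ESRL arrays well above background, so that no size is given. In differentiated cells 3 of 36 were higher at 15 min, beside 3.76% of all probes, among them Rnf168, which extends the marks of Rnf8 (1.12, adjusted p = 0.038), and Tipin (0.97, adjusted p = 0.030), and 0 passed without replicates 2 and 3 of EDRE. At 4 h the mitotic phosphatases Cdc25c (-0.95, adjusted p = 0.040) and Cdc25b (-0.81, adjusted p = 0.041) were lower and 0 of 36 higher, beside 2.39% of all probes in either direction. The response of Cdc25b at 4 h differed between the cell types (-1.29, adjusted p = 0.043). Under median centering neither of the falls in EDRL passed (adjusted p = 0.17 for Cdc25c and 0.25 for Cdc25b), nor did the difference in response of Cdc25b (adjusted p = 0.086). Against these, the median log2 change of the 18 p53 targets tested in EDRL was 1.29, beside -0.21 for the 8 sensing genes and -0.09 for all probes. With scan time as a block, 3 of the 18 p53 targets passed in EDRL against ED, beside 0.142% of all probes. In ESRL against ES, 0 of all probes passed with that block.

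**Figure D5:**
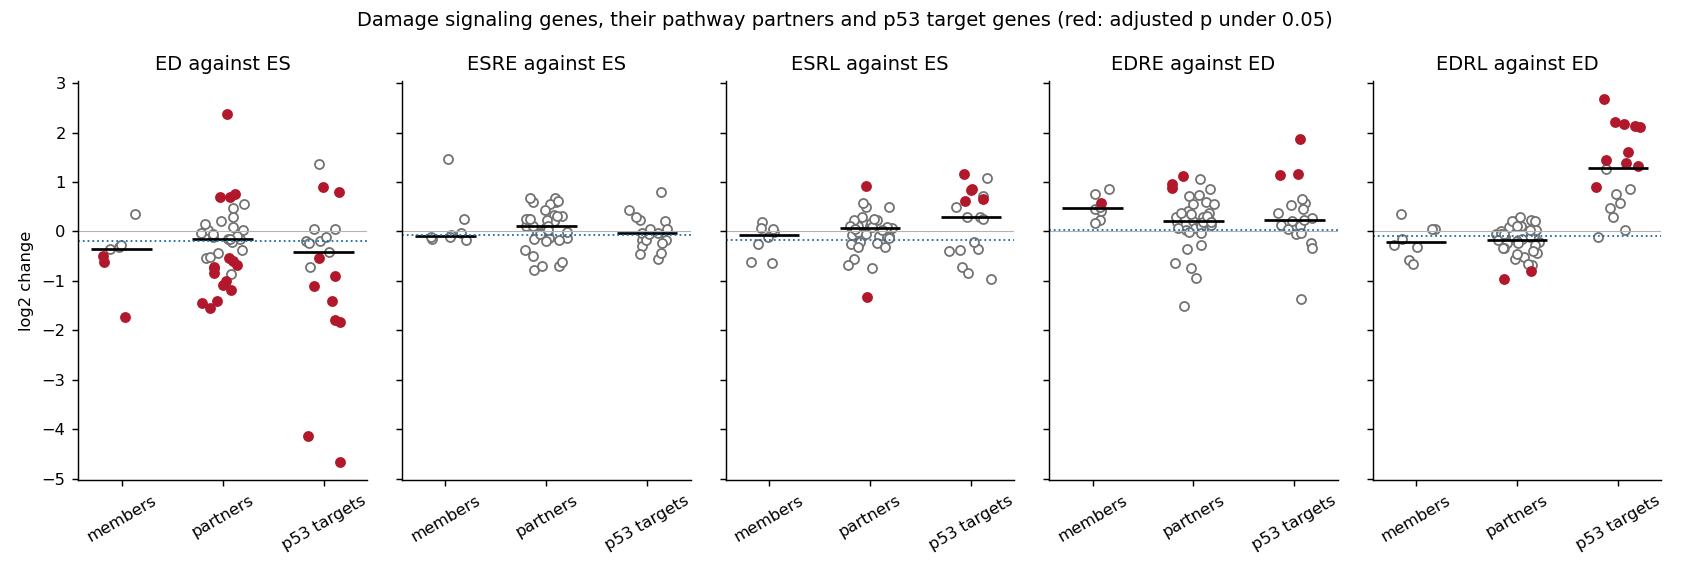
Log2 change (vertical axis) of each tested gene among the 10 sensing genes (members), their 40 pathway partners and 20 p53 target genes in 5 comparisons; red points have an adjusted p under 0.05, bars are medians of the list and the dotted line is the median of all probes. In EDRL against ED the p53 targets had a median of 1.29, while the medians of the sensing genes (-0.21) and partners (-0.17) lay near that of all probes (-0.09).

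The genes whose pattern over the arrays was most like that of 3 of the kinases were read from 3655 probes that were usable and well above background on all 18 arrays. For Chek2, Mapk8 (Pearson's r of 0.98 over 14 usable arrays), Gga3 (0.97) and Bckdhb (0.97) were closest. For Chek1 they were Cep41 (0.95 over 17 arrays), Hexim2 (0.92) and Baz2b (0.92), and for Atm they were Gm44505 (0.92 over 13 arrays), Mustn1 (0.91) and Zfp935 (0.90). The 13 Atm arrays held no ED array. They included EDRE replicates 2 and 3, where Atm lay at -4.87 and -5.17 and was not well above background. The arrays share cell types, scan times and 2 dim libraries, and these values are descriptions with no test.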

How the data were processed

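The authors deposited the scanner output of 18 one-color arrays; its processed signals are intensity values with background subtracted by Agilent Feature Extraction (version 10.7.3.1 in the file headers, 9.1 per the labels), and arrays were not normalized to each other. A matrix of log2 values that the authors deposited, centered near the array median as tested on the files, served as an alternative. Outlier spots were not left out of that matrix. The other columns hold the marks for outlier spots and for signals well above background as the scanner software wrote them. The number of arrays limits the precision.

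Control and negative control spots (1417 and 200 of 39448) were left out, which left 37246 probes. From the log2 signal of each probe the 75th percentile of its array was subtracted, and outlier spots were left out. A probe was tested where 1 or more of the groups compared had it well above background on all 3 arrays. Group means were fitted over all 18 arrays in R 4.3.3 (limma 3.58.1). Variances were moderated over the probes tested, and probes with Benjamini-Hochberg adjusted p under 0.05 passed. The procedure was run on simulated data with the same spread in all groups and no scan time effect. It therefore does not speak to unequal spread or scan time in the real arrays. Labels do not say that replicates came from separate cultures, so p-values measure the spread between these samples, which may be technical.

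The 10 genes, the lists and the tests were chosen with earlier results of these data known. The rule was to name the 10 genes, the 2 partners that rose most and the 2 that fell most among those past the test in each comparison, and for Atm, Chek1 and Chek2 the 3 genes most alike; other lists are given by counts. Lists of endoderm and neural markers gave 1 higher and 4 lower of 5, and 0 higher and 1 lower of 4, in ED against ES. The alternatives, 14 planned, each array left out in turn and 2 added after seeing the data, are in the closing section. Protein data and RT-PCR of the study are not analysed here.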

Additional observations from a re-analysis of the deposited data

Results flagged for a closer look

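The following levels were left out of the tests because all 3 spots of the group were marked as outliers, yet every one of these spots lay above the brightest negative control spot of the arrays of its group. Values are mean log2 signals minus the 75th percentile of each array, with SD over n = 3. Atm in ED lay at -1.21 ± 0.40, against a brightest negative control of -2.50. Mdc1 lay at 0.66 ± 0.10 in ES, 0.92 ± 0.16 in ESRE, 0.49 ± 0.47 in ESRL and 0.26 ± 0.17 in ED. Nbn lay at 0.96 ± 0.11 in ES and 1.33 ± 0.13 in ESRE. The brightest negative controls of the ES, ESRE and ESRL arrays lay at -2.48, -3.34 and -2.97. What led the software to mark these spots was not tested. Among unmarked spots, Atm lay below the brightest control on ES replicate 1 (-4.40 against -2.48) and ESRL replicate 1 (-3.82 against -3.29). On EDRE replicates 1, 2 and 3 the brightest controls lay at 0.61, -0.09 and -1.03, above every value of Atm, Atrip and Trp53bp1. No difference between the cell types in the response to IR passed for any of the sensing genes, and groups of 3 are too small for a test of single outlying arrays.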

How the results depend on the processing

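The lower Chek2 of ED kept its direction in all 16 other settings (-1.82 to -0.97) and passed in 14 of them and in 18 of 18 fits that left out 1 array. It missed with scan time as a block and with the methods' t-test. The lower Atr of EDRL against ESRL passed in 15 of 16 and 18 of 18 (-1.06 to -0.51 and -1.04 to -0.93), missing only the limit of a log2 change over 1, and Chek2 passed in 15 of 16 and 18 of 18. The log2 change of Atr in ED against ES became 0.15 under median centering and 0.16 in the authors' matrix, and that of Rad50 0.044 and 0.025. Atr in EDRE against ESRE became 0.55 under median centering and 0.55 in the matrix. Atm in ESRL against ES became 1.48 (adjusted p = 0.0099) with outlier spots kept and without replicates 2 and 3 of EDRE and replicate 1 of ESRL. The median of all probes moves with the centering, and causes beyond that were not tested. Under median centering the share of calls that were higher moved from 38.1% to 62.8% in ED against ES, 42.3% to 68.6% in EDRE against ESRE, 48.7% to 66.0% in EDRL against ESRL, 19.7% to 53.7% in ESRL against ES, 50.9% to 80.0% in EDRE against ED, and 72.7% to 90.3% in EDRL against ED.

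Counts of genes past the test changed as follows. In ED against ES, 3 genes became 1 when a log2 change over 1 was required, 0 with scan time as a block (where 21.2% of all probes passed), 1 with the methods' t-test, 5 with outlier spots kept and without replicates 2 and 3 of EDRE, and 6 when replicate 1 of ESRL was also left out; the t-test called 59.8% of all probes after Benjamini-Hochberg adjustment and 64.6% at an unadjusted p under 0.05. The 1 gene past the t-test in ED against ES was Atr. With outlier spots kept the count in ED against ES stayed at 3, with Atm, as higher, in place of Rad50. In EDRL against ESRL, 3 became 1 with the fold limit and 1 with scan time as a block. In EDRE against ED, 1 became 2 under median centering, 4 in the authors' matrix, 3 with array weights and 3 with outlier spots kept, and 0 with the fold limit, with quantile normalization, with only the groups compared, with scan time as a block, with the t-test, and without replicates 2 and 3 of EDRE with outlier spots left out or kept. In EDRE against ESRE, 0 became 5 under median centering and 5 in the matrix, all higher, 4 with quantile normalization (2 higher), 3 with array weights (2 higher), 2 with outlier spots kept and 2 without replicates 2 and 3 of EDRE, all lower, 3 without them and with outlier spots kept (1 higher), and 4 also without replicate 1 of ESRL (1 higher). Array weights, estimated gene by gene, gave the bright replicate 1 of EDRE a weight of 0.0383 and the dim replicate 3 one of 2.05. They moved 0 to 5 in EDRL against ED, 2 in ESRE against ES, 3 for the difference in response at 15 min and 1 at 4 h. Leaving out replicates 2 and 3 of EDRE moved ESRE against ES to 1, and leaving out those with replicate 1 of ESRL and keeping outlier spots moved EDRL against ED to 2, ESRE against ES to 1, ESRL against ES to 1 and the difference at 4 h to 2. With 1 array left out at a time, the counts ran from 2 to 3 in ED against ES, 2 to 4 in EDRL against ESRL, 0 to 3 in EDRE against ED, 0 to 2 in EDRE against ESRE, 0 to 1 in ESRE against ES, 0 to 2 for the difference at 15 min, and 0 to 0 in the others. The highest counts of EDRE against ED, EDRE against ESRE, ESRE against ES and the difference at 15 min came without replicate 1 of EDRE.

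Replicate numbers gave no sign of pairing the samples, though groups of 3 cannot exclude it. Deviations of same-numbered arrays correlated at -0.43 to 0.30 (median -0.02 over 45 pairs), with 9 pairs over 0.1. Those of differently numbered arrays correlated at -0.37 to 0.39 (median 0.0004 over 90 pairs), with 22 pairs over 0.1. With the replicate block, 3 genes passed in ED against ES, 0 in EDRE against ED (Atr, adjusted p = 0.051) and 3 in EDRL against ESRL, and 0 in the other comparisons. Counting any probe of a gene was not run, since each gene has 1 probe. The t-test gives no value for a difference in response.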
